A study of Homo sapiens with 3 samples.

Results

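The peaks described here were called in chromatin from DLD-1/DKK-1 cells when DLD-1/Mock chromatin was the control, and had no counterpart when input DNA was the control. They were taken as the intervals of the list against DLD-1/Mock that shared not a single base pair with an interval of the list against input. This rule selected 3442 of 6631 peaks (51.9%), and the other 3189 were called against both controls with identical coordinates, tags and summits. The calls themselves chose the peaks, so no test of the difference between the groups was made, and peaks called against both controls are given beside them only as a description.

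DLD-1 is a human colorectal adenocarcinoma line, described by the study as APC-mutant and without endogenous DKK-1. The study describes DLD-1/DKK-1 cells transduced with a lentivirus carrying a V5-tagged DKK-1 under a doxycycline-inducible promoter. It describes DLD-1/Mock cells as infected with a lentivirus carrying no ectopic gene. The sample label calls the DLD-1/DKK-1 cells transfected with DKK-1. The third library was a pool of input DNA, without antibody and labelled as from colon cancer cells, and which cells made up the pool is not given in the sources used here. There was 1 library per condition. The sample labels give an anti-V5 antibody for both immunoprecipitates while the methods of the study give a DKK-1 antibody, and which was used could not be settled from these sources. The study's supplement says that transduced cells received doxycycline for expression of DKK-1, without naming the chromatin experiment.

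DKK-1 is a secreted inhibitor of the Wnt/β-catenin pathway that binds LRP co-receptors at the cell surface, and Wnt signaling is constitutively active in most colorectal cancers. In a ChIP-seq experiment, fragments bound by the antibody pile up as tags at a locus, and the local density of tags in a control measures how often that locus is recovered without the bait. A mock immunoprecipitate adds the background of the antibody and the beads to that of the chromatin, whereas input carries the copy number, fragmentation and mappability of the chromatin. The question put by the comparison is which loci stood above the first background but not above the second.

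The libraries held 21312041 (DLD-1/DKK-1), 24151009 (DLD-1/Mock) and 27723787 (input) tags after filtering to at most 2 tags per position, so that both controls were deeper than the immunoprecipitate of interest. A fragment length of 150 bp held 1.18 tags on average across the effective genome. Positions below are in hg18, counted from 1.

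No sequence of the hg18 build was used, and the intervals are therefore given by position. MKLN1 and WDR34 were the genes of the study's list of specific sites whose transcript start was covered by a peak called against DLD-1/Mock only, and their promoters are shown for that reason. The letters are the 250 bases upstream of the start in the RefSeq promoter table of GRCh38.p14, 5′ to 3′ on the strand of the gene, which is plus for MKLN1 (chr7:131327626-131327875) and minus for WDR34, named DYNC2I2 there (chr9:128656848-128657097). Capitals mark the GC box GGGCGG, the TCF/LEF core CTTTGAA or CTTTGAT and the CCAAT box, each searched on both strands.
MKLN1: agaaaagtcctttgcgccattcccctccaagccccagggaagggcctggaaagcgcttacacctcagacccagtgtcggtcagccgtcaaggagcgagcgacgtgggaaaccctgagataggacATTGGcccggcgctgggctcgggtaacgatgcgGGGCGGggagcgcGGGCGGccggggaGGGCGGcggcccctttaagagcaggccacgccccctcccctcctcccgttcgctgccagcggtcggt
WDR34: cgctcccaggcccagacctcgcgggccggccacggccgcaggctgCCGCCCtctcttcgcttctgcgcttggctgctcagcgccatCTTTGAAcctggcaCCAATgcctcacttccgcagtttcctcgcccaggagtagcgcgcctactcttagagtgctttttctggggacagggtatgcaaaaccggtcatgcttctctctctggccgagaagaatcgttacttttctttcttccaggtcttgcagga

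The MKLN1 window held 3 GC boxes, 1 CCAAT box and 0 TCF/LEF cores. The WDR34 window held 1 of each. Among 35116 promoter windows of the same length in the table, 42.6% held a GC box, 32.0% a CCAAT box and 5.94% a TCF/LEF core. The GC content was 68.4% for MKLN1 and 59.6% for WDR34, with 24 and 17 CpG dinucleotides, against medians of 58% and 11 over all windows. A match of letters is no evidence of a bound factor.

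Peaks called against DLD-1/Mock only were small. They held a median of 16 tags (range 12 to 100), and 2771 of them (80.5%) held 12 to 20 tags. Peaks called against both controls held a median of 17 tags (range 12 to 1081). Counting error alone gives 95% Poisson limits of 9.15 and 25.98 around 16 tags, and of 9.90 and 27.2 around 17, so that peaks at these medians could not be told apart by their tags. More than 30 tags were found in 142 peaks (4.13%) called against DLD-1/Mock only and in 314 (9.85%) called against both.

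The width of peaks called against DLD-1/Mock only had a median of 472 bp (range 250 to 2389; mean 523 ± 179 bp, SD across peaks), where peaks called against both had a median of 486 bp (range 189 to 7268). Widths above 1000 bp were present in 88 and 161 peaks of the respective groups. The summit, the position with most overlapping fragments, lay a median of 253 bp from the start of the peak. Relative to the width it stood at 50% in the median (quartiles 37.2% and 63.2%), and its median distance from the centre of the peak was 60.5 bp. In peaks called against both controls this distance was 59 bp. The summits were mostly off centre, on either side of it. Their offsets from the start had one crest at 125 to 149 bp, with 684 peaks (19.9%), and a broader one at 275 to 324 bp, with 748 (21.7%), and only 142 peaks (4.13%) lay at 150 to 174 bp. Peaks called against both controls had 21.98%, 18.6% and 3.86% in these ranges.

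**Figure D1:**
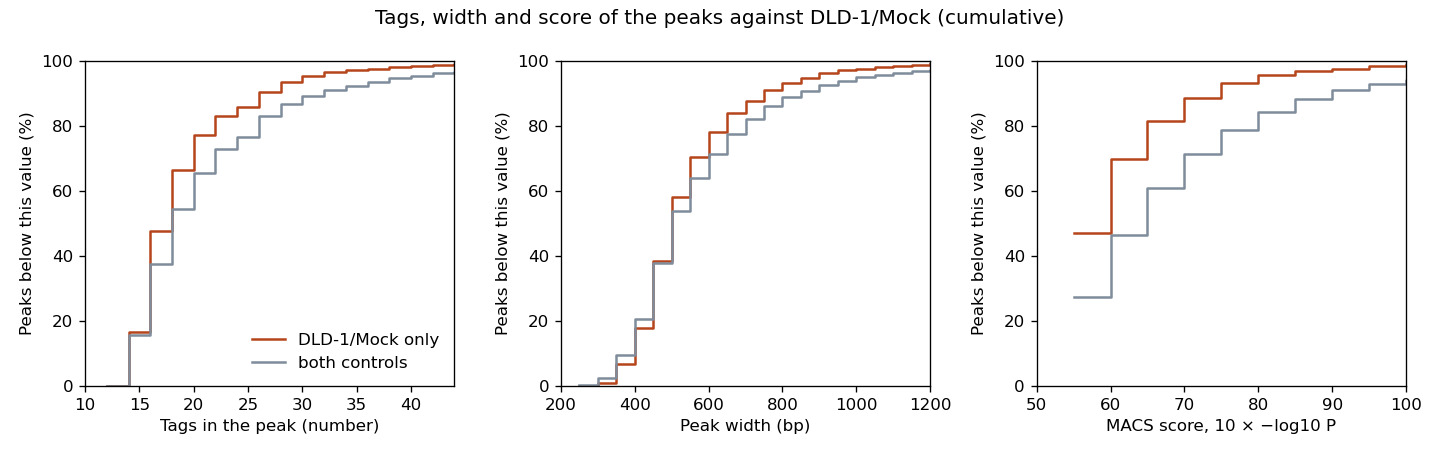
Cumulative percentage of peaks below a given number of tags (left), width in bp (middle) and MACS score (right) for peaks of DLD-1/DKK-1 against DLD-1/Mock, split into those called against DLD-1/Mock only and those called against both controls. The curves lie close for width (medians 472 and 486 bp), and the score separates most, with 46.9% and 27.4% of peaks below 55.

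The score given by MACS rises by 10 with each power of 10 in the Poisson P value, and a peak was listed from a score of 50. Peaks called against DLD-1/Mock only had a median score of 55.5 (range 50.01 to 213.3), and 1614 of them (46.9%) were below 55. Those called against both controls had a median of 60.9, with 873 (27.4%) below 55. A P value of 1e-10 or less was reached by 41 peaks called against DLD-1/Mock only (1.19%), where the whole list against DLD-1/Mock had 3.48%. Fold enrichment, the tags at the summit over those expected, had a median of 7.60 (range 3.60 to 13.51). It was at least 10 in 205 peaks (5.96%), against 9.12% of the whole list. The score and the fold enrichment come from the comparison that chose the peaks, so that these shares describe them only. None of the 200 sites that the study listed as specific was among them (0 of 200), since all 200 were called against both controls.

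The empirical FDR, estimated by the peak caller from the exchange of ChIP and control, ranged from 33.25% to 100% (median 49.2%). It was below 40% in 174 peaks called against DLD-1/Mock only (5.06%) and in 469 called against both controls (14.7%). An FDR of 100% was given to 9 (0.261%) and 37 (1.16%) peaks, and the former included the 5 with the highest score.

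The score and the number of tags of a peak together fix the number of tags that MACS expected there, called its background below. The lowest background was the genome-wide value of 1.18 tags per 150 bp, which follows from the depth of the DLD-1/DKK-1 library. At peaks on that value the tag density of the control itself is not known. Solved over peaks of 300 to 700 bp (2977 of the 3442), the DLD-1/Mock background had a median of 1.22 tags per 150 bp (range 1.18 to 9.57), and stood at the genome-wide value in 1094 of them (36.7%). The 2534 peaks called against both controls had a median of 1.19, at the genome-wide value in 43.2%. The summit heights implied by these backgrounds were whole numbers of tags, within 0.05, in 95.0% of the former peaks. Heights derived from the DLD-1/Mock list and from the input list differed by less than 0.05 tags in 98.7% of the latter.

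A peak that missed the cut-off against input must have had a higher expected number of tags there, and the smallest such number follows from its tag count if the same interval was tested. Relative to the DLD-1/Mock background, the smallest input background that accounts for the missing call was 1.09-fold in the median (quartiles 1.04 and 1.19, highest 2.00). For 1577 of 2977 peaks a ratio below 1.1 was already enough. A ratio of at least 1.5 was required in 85 (2.86%). These values are lower bounds, since the list against input gives no value where no peak was called. At peaks called against both controls, where the ratio could be read from both lists, it was 1 in the median (quartiles 0.983 and 1.07), and at least 1.5 in 33 of 2534 (1.30%). A ratio of 1 also arises where both lists stood at the genome-wide value, so that it need not mean equal densities of the controls.

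**Figure D2:**
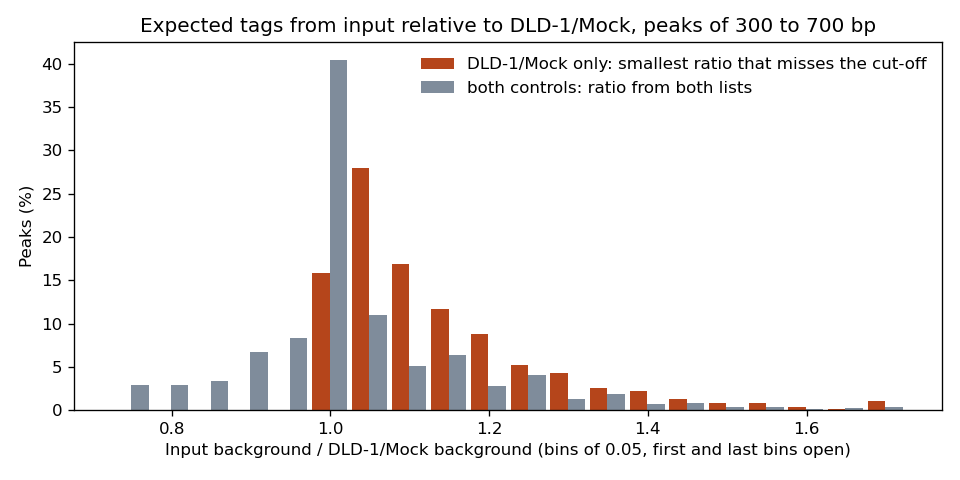
Expected tags from input divided by expected tags from DLD-1/Mock at peaks of 300 to 700 bp, as the percentage of peaks per bin of 0.05. For peaks called against DLD-1/Mock only the bars give the smallest ratio that misses the cut-off (median 1.09), and for peaks called against both controls the ratio itself (median 1). The former lies above 1 by construction, so that the direction of the difference between the groups is not a result.

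How far below the cut-off a peak scored against input is not known from the lists. At the cut-off against DLD-1/Mock, the lowest score was 50.01, found among others in a peak on chromosome 13 from 40761754 to 40762230 with 14 tags. The retained peak nearest to the cut-off against input, on chromosome 7 from 111956591 to 111957278, had a score of 50 there and 50.35 against DLD-1/Mock, with 22 tags.

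Chromosomes 7, 8 and 9 carried 1926 of the peaks called against DLD-1/Mock only (56.0%). Chromosome 8 held 1067 (7.38 per Mb between the outermost peaks of both lists), chromosome 7 held 478 (3.08 per Mb) and chromosome 9 held 381 (2.72 per Mb). The other 20 chromosomes with peaks had 0.280 to 1.31 per Mb, with a median of 0.604. Chromosome Y had none. Of the peaks called against both controls 46.2% were on chromosomes 7, 8 and 9, and of the 2092 called against input only 31.5%.

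**Figure D3:**
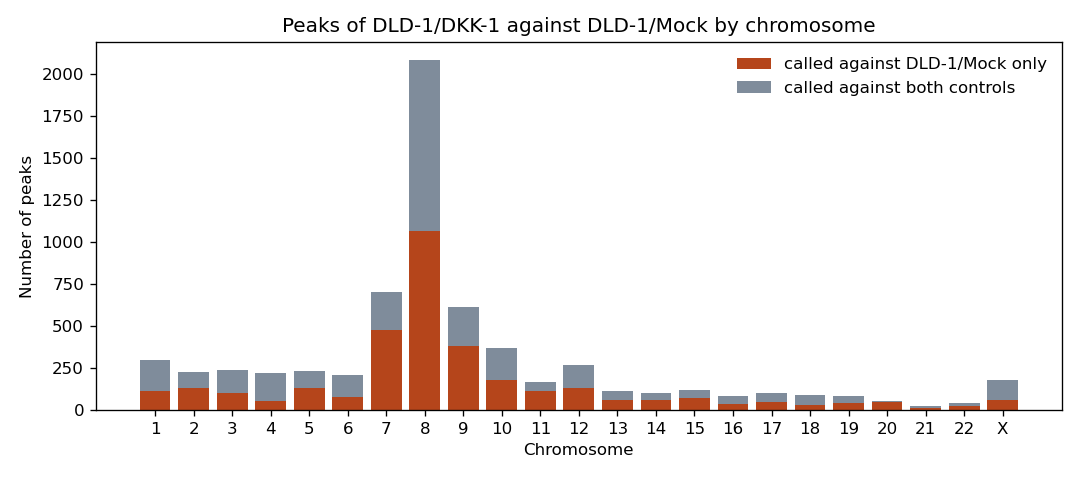
Number of peaks of DLD-1/DKK-1 against DLD-1/Mock on each chromosome, stacked by whether they were called against DLD-1/Mock only or against both controls. Chromosome 8 carried the most of either kind (1067 and 1015), and on chromosome 7 the peaks called against DLD-1/Mock only (478) outnumbered the others (226).

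The share of a chromosome's peaks that was lost against input varied from 24.0% to 85.2%, where the whole list had 51.9%. On chromosome 8 it was 51.2% (95% Wilson interval 49.1% to 53.4%), so that its large number of these peaks matched its large number of peaks altogether. The share was higher on chromosome 7, with 67.9% (64.4% to 71.2%), on chromosome 9, with 62.2% (58.2% to 65.9%), and on chromosome 11, with 66.9% (59.5% to 73.5%). Chromosome 20 had the highest, with 46 of 54 peaks (85.2%, 73.4% to 92.3%). The lowest shares were on chromosome 4, with 53 of 221 (24.0%), chromosome X, with 57 of 181 (31.5%, 25.2% to 38.6%), and chromosome 18, with 31 of 89 (34.8%, 25.7% to 45.2%). The intervals describe the counts of peaks in these libraries, and neighbouring peaks are not independent.

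**Figure D4:**
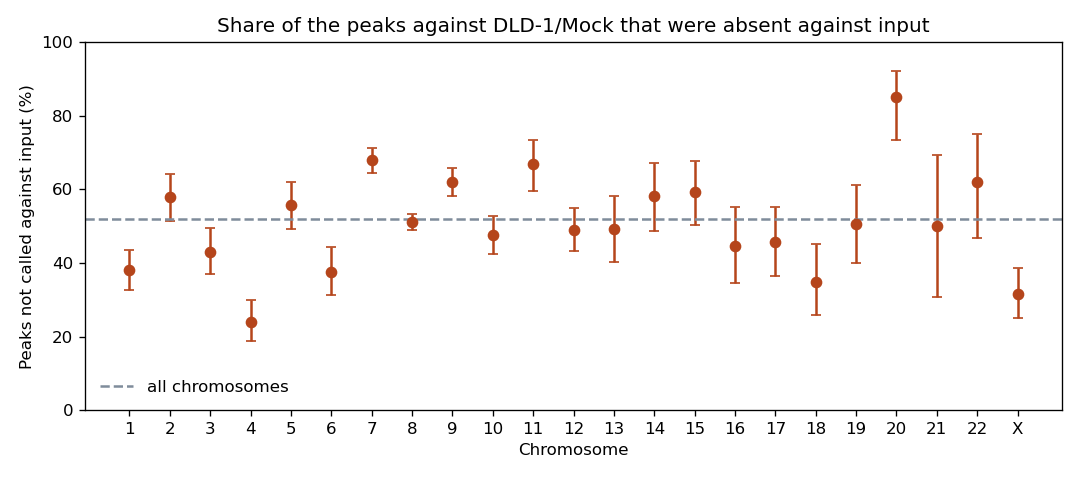
Percentage of the peaks against DLD-1/Mock on each chromosome that were not called against input, with 95% Wilson intervals for counting error, and the value of the whole list (51.9%) as a dashed line. Chromosome 20 stands highest (85.2%) and chromosome 4 lowest (24.0%).

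The ratio of the backgrounds could be read at the retained peaks of each chromosome. Chromosomes 7, 8 and 9 stood above most others in the share of peaks with a higher input background. Among peaks of 300 to 700 bp called against both controls, the input background exceeded that of DLD-1/Mock by more than 5% in 50% of 166 peaks on chromosome 7, 45.0% of 171 on chromosome 9 and 41.2% of 736 on chromosome 8. On the chromosomes other than 7, 8, 9 and 20 it did so in 7.84% to 29.4% of peaks. Chromosome 11, where the share lost against input was also high, had 25.5% of 51 peaks, and chromosome 20 had only 6 retained peaks of that width. The median ratio was 1.049 on chromosome 7, 1.029 on chromosome 9, 1.008 on chromosome 8 and 1 on the chromosomes other than these and 20. The share of peaks with a lower input background was not counted per chromosome. A peak at the genome-wide value in both lists has a ratio of 1. A chromosome with fewer such peaks can therefore show more ratios above 1, and their number per chromosome was not counted. A part of copy number or of fragment recovery in these values was not tested, because coverage along the genome was not analysed here.

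Within chromosomes the peaks were unevenly placed. On chromosome 7 between 80 and 110 Mb, 174 of 202 peaks (86.1%) were called against DLD-1/Mock only, compared with 245 of 420 (58.3%) beyond 110 Mb and 59 of 82 (72.0%) below 80 Mb. Chromosome 9 was split in another way, with 15 of 78 (19.2%) below 40 Mb and 354 of 519 (68.2%) beyond 80 Mb. Chromosome 8 had 80 of 185 (43.2%) below 65 Mb and 987 of 1897 (52.0%) beyond. These boundaries were chosen from counts in bins of 10 Mb and served to describe the positions.

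Among windows of 1 Mb, 1220 held at least 1 such peak and 72 held 10 or more, which together carried 1123 peaks. Of those 72 windows 47 were on chromosome 8, which held 2082 of the 6631 peaks of the whole list. The fullest windows were all on chromosome 8, at 100 to 101 Mb with 30 of 54 peaks, at 117 to 118 Mb with 29 of 48 and at 128 to 129 Mb with 28 of 30. The first of these windows contains VPS13B and the second contains EIF3H. In the last of them only 2 peaks were retained against input, compared with 24 and 19 in the others.

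Uninterrupted runs of peaks called against DLD-1/Mock only were found at several loci. The longest had 34 consecutive peaks on chromosome 8 from 128749502 to 129665027, a stretch of 0.916 Mb, in which the list against input had 0 peaks. Their tags ranged from 13 to 100 (median 25) and their scores from 50.02 to 213.3 (median 72.4), both above the medians of all peaks called against DLD-1/Mock only. In 7 of the 34 peaks the P value was at most 1e-10. Chromosome 7 had runs of 27 peaks from 91409691 to 93640486 and of 30 peaks from 101486069 to 105533083, each with 0 peaks against input. Their median tags were 16 and 17. A further run of 27 peaks from 93770232 to 98843014 on the same chromosome enclosed 2 peaks that were called against input only. On chromosome 12 a run of 25 peaks extended over 12.3 Mb and enclosed 5 of them.

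The gap from a peak called against DLD-1/Mock only to the next peak of the list against DLD-1/Mock had a median of 41875 bp, and 198 peaks had a neighbour within 1000 bp. Peaks called against both controls had a median gap of 52733 bp. The nearest peak against input was a median of 84993 bp away. It was within 1000 bp for 102 peaks, the closest of which lay on chromosome 10 from 51236481 to 51237332 with a gap of 5 bp.

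The peaks with the highest scores among those called against DLD-1/Mock only were wide and lay mostly on chromosome 8. Of the 41 whose P value was at most 1e-10, 26 were on chromosome 8, 8 on chromosome 7, 4 on chromosome 9 and 3 elsewhere. They held 25 to 100 tags (median 38) over widths of 555 to 2389 bp (median 1000 bp), and 9 of them had an FDR of 100%. The chromosomes of the peaks called against both controls at this P value are not given here. The highest score, 213.3, belonged to a peak on chromosome 8 from 128876320 to 128878138. This peak held 86 tags (95% Poisson interval 68.8 to 106.2). Expectations here and for the next peaks were solved from the listed tags. For this peak DLD-1/Mock gave 25.1, and the missing call then requires an input expectation of at least 52.8. Within the same stretch of 0.916 Mb followed a peak from 128815029 to 128817417, with 100 tags (81.4 to 121.6), and one from 128890402 to 128892518, with 83 tags (66.1 to 102.9). Expected tags from DLD-1/Mock were 33.9 and 25.3 there, and those from input at least 63.7 and 50.5. At the peak from 129050149 to 129051452, with 50 tags, the expectations were 11.1 from DLD-1/Mock and at least 26.1 from input. Their input background was thus between 1.88 and 2.35 times that of DLD-1/Mock at the least.

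Outside this stretch, the peak on chromosome 8 from 100024838 to 100025864 held 43 tags (31.1 to 57.9) and had a score of 177.7 and a fold enrichment of 12.59. Its expectation from DLD-1/Mock was 8.16 tags, and that from input at least 21.2 tags, or 2.60 times as many. This peak and those named in that stretch were wider than 700 bp, where the number of tags tested by MACS can be lower than the number listed. With up to 6 fewer tags the expectations, also those from input, would be lower and the ratios larger. The ratios are therefore lower bounds, and the expectations are approximate.

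By tags and by width, 2 further peaks ranked among the first 5. One lay on chromosome 9 from 130355420 to 130357394, with 93 tags (75.1 to 113.9) over 1975 bp, and one on chromosome 7 from 130275740 to 130277694, with 74 tags (58.1 to 92.9) over 1955 bp. Their fold enrichment was only 5.94 and 3.60, the second being the lowest of all 3442 peaks, and their expectations from DLD-1/Mock were high at 50.97 and 38.3 tags. Solved from the listed tags, an input background 1.14 times as high was enough for either to be lost. These values are approximate too, both peaks being wider than 700 bp.

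The highest fold enrichment, 13.51, belonged to a narrow peak on chromosome 7 from 84196474 to 84196984 with 21 tags. Peaks on chromosome 15 from 38253073 to 38253456 with 19 tags and on chromosome 5 from 114673192 to 114673827 with 20 tags followed, both with 12.86. Chromosome 7 also gave the next, from 81162703 to 81163164 with 17 tags and from 100599687 to 100600267 with 23 tags, both with 12.67. The intervals of 17 tags (9.90 to 27.2) and 23 tags (14.6 to 34.5) overlap widely, so that these peaks are not ranked by their counts.

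The list of specific sites names a RefSeq transcript at 83 sites, for 82 transcripts in all. The study drew up that list from these same libraries. A peak called against both lay within 81 of the 82 transcripts. Peaks called against DLD-1/Mock only fell in 25 of the 82 transcripts (30.5%). There were 73 of them, or 2.12% of the 3442, beside 158 peaks called against both controls in the 82 transcripts. The whole list against DLD-1/Mock had 3442 and 3189 peaks of these kinds. Because all 200 listed sites were called against both controls, the choice of these transcripts itself favoured peaks of that kind. The 25 transcripts were long, with a median of 279.3 kb against 113.2 kb for the 57 without such a peak. Of the 73 peaks 67 lay in introns and 6 touched an exon. They held 12 to 57 tags (median 16), with a median width of 468 bp and a median fold enrichment of 7.60, all close to the values of the whole group. A fold enrichment of at least 10 was reached by 2 of them (2.74%), both in VPS13B. The share was 5.96% of all peaks called against DLD-1/Mock only and 9.12% of the whole list.

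**Figure D5:**
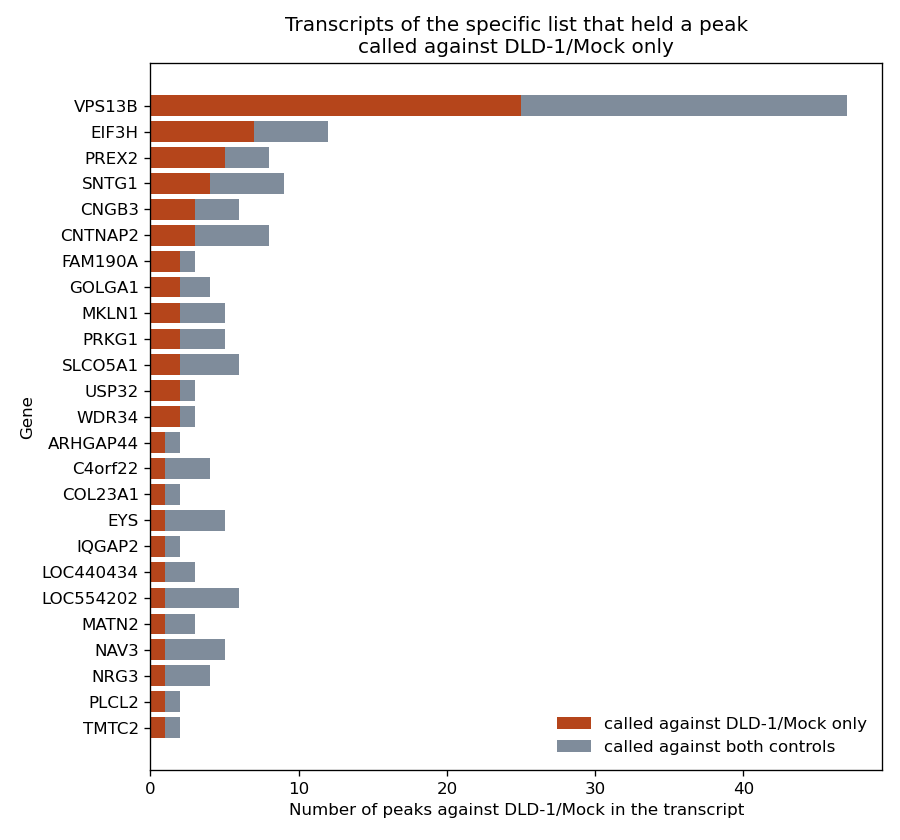
Number of peaks against DLD-1/Mock within each of the 25 transcripts of the specific list that held a peak called against DLD-1/Mock only, stacked by whether the peak was called against DLD-1/Mock only or against both controls. VPS13B had the most peaks of either kind (25 and 22), and its share called against DLD-1/Mock only (53.2%) was near that of the whole list (51.9%). In 12 genes there was a single peak called against DLD-1/Mock only.

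Genes of chromosome 8 carried 47 of the 73 peaks in 7 transcripts. The share of their peaks called against DLD-1/Mock only ran from 33.3% (SLCO5A1 and MATN2) to 62.5% (PREX2). It was 53.2% in VPS13B and 58.3% in EIF3H, where chromosome 8 as a whole had 51.2%. VPS13B, which encodes a large lipid-transfer protein of the Golgi apparatus, held 25 peaks called against DLD-1/Mock only and 22 called against both controls over 864.3 kb. Its 25 peaks had 12 to 36 tags (median 16), a fold enrichment of 6.13 to 10.98 and scores of 50.28 to 84.56, and 1 of them touched exon 14. The peak with the highest score of the gene, from 100287618 to 100288357, held 24 tags and had a fold enrichment of 10.98. EIF3H, a subunit of the translation initiation factor complex eIF3, held 7 such peaks over 111.0 kb, or 6.31 per 100 kb, where VPS13B had 2.89. One EIF3H peak touched exon 8, and another was centred 605 bp inside the gene, with 17 tags and a score of 73.4. The widest EIF3H peak, from 117810962 to 117812664, held 57 tags and a score of 105.1, and was the only one of the 73 peaks whose P value was at most 1e-10.

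PREX2, a guanine nucleotide exchange factor for Rac, held 5 peaks called against DLD-1/Mock only, all in introns, and 3 called against both. The tags of these 5 peaks were 14, 13, 13, 17 and 14 in order along the gene, and their scores were 51.6, 50.4, 50.03, 66.8 and 50.08. Hence 4 of them scored 51.6 or less, next to the cut-off, and a single peak, from 69243279 to 69243779, stood clear of it. SNTG1, a syntrophin of the dystrophin complex, held 4 peaks with 13 to 16 tags and scores of 53.27 to 58.64. CNGB3, a subunit of the cyclic nucleotide-gated channel of cone photoreceptors, held 3 with 14 to 15 tags, 1 of which spanned exons 16 and 17. SLCO5A1, an organic anion transporter family member, held 2 with 13 and 16 tags, and MATN2, an extracellular matrix protein, held 1 with 17 tags.

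Outside chromosome 8, CNTNAP2 was the only gene with 3 such peaks. It encodes a neurexin-family adhesion protein, and its peaks held 12, 20 and 16 tags, with scores of 50.5, 53.7 and 59.0, over 2305 kb of chromosome 7. All 3 lay in introns, and 5 further peaks in the gene were called against both controls.

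MKLN1 on chromosome 7, which encodes the muskelin subunit of a ubiquitin ligase complex, held 2 peaks called against DLD-1/Mock only. The first, from 130662365 to 130663310, reached from -770 to 175 bp relative to the listed start, whose upstream sequence is given above. Its summit was at -132 bp, and it held 32 tags where 12.3 were expected, and its fold enrichment was 7.02. The second, 79741 bp downstream in an intron, held 24 tags. WDR34 on chromosome 9, an intermediate chain of the cytoplasmic dynein of cilia, also held 2. That over the start, from 130458937 to 130459743, reached from -794 to 12 bp with its summit at -495 bp, outside the printed window. It held 26 tags where 6.83 were expected, with a score of 83.5 and a fold enrichment of 7.60. Its neighbour, centred 641 bp downstream of the start, held 18 tags with a score of 55.01. These and the EIF3H peak were the 4 peaks centred within 1000 bp of a listed transcript start. The peaks over the starts of MKLN1 and WDR34 were wider than 700 bp, so that their expected tags are approximate.

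LOC440434 on chromosome 17 was the remaining gene with a peak touching an exon, namely exon 6, where 20 tags gave a score of 73.4 and a fold enrichment of 8.31.

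Of the 10 genes that the text of the study named from its ChIP analysis, 4 (40%) held a peak called against DLD-1/Mock only beside their specific site, where 30.5% of all 82 transcripts did. They were PREX2 with 5 peaks and NRG3, IQGAP2 and LOC554202 with 1 each. The NRG3 peak, in a gene for a neuregulin ligand of ErbB4, was on chromosome 10 (84683983 to 84684414), 1056775 bp into the gene, with 15 tags, a fold enrichment of 8.45 and a score of 61.8. The IQGAP2 peak, in a gene for a scaffold protein of the IQGAP family, lay on chromosome 5 from 75922813 to 75923234 with 14 tags, a fold enrichment of 8.94 and a score of 54.2. The peak in the non-coding LOC554202, on chromosome 9 from 21521139 to 21521623, held 16 tags and had a score of 50.3, next to the cut-off, and 5 more peaks in its transcript were called against both controls. The 6 other genes (REPS2, FAM5B, NRG1, MAP2K3, BCL2A1 and DAPK1) held none. Nothing particular to these genes is read from the count. All 3 single peaks were in introns, and an input background 1.24 times (NRG3), 1.09 times (IQGAP2) or 1.01 times (LOC554202) that of DLD-1/Mock was enough for the call to be missed.

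GOLGA1 (a golgin of the Golgi apparatus), USP32 (a deubiquitinase), PRKG1 (the cGMP-dependent protein kinase) and FAM190A held 2 peaks each in introns, with 14 to 20 tags. The strongest of them was in PRKG1 from 52963417 to 52963943, with 18 tags and a score of 70.3. The other 8 genes with a single peak, all in introns, were ARHGAP44, C4orf22, COL23A1, EYS, NAV3, PLCL2, TMTC2 and MATN2, the last mentioned above. The lists carry positions of tag enrichment and no measure of the expression of these genes.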

How the data were processed

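Per the study's methods and the file headers, reads of 40 bp were aligned by the authors to hg18 with ELANDv2 in CASAVA 1.7, unique alignments were kept, and peaks were called on single libraries with MACS 1.4.0beta (fragment size 150 bp, P value cut-off 1e-05, local backgrounds over 1000 and 10000 bp, at most 2 tags per position). The tags deposited are unnormalized counts. The deposited score is the −log10 of the P value multiplied by 10. Fold enrichment was deposited as a ratio, namely summit tags over expected tags, and the deposited FDR is a percent, estimated by MACS. Widths and summit offsets are in bp.

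Lists were compared with Python 3.11.15 (pandas 2.3.3, scipy 1.17.1, numpy 2.4.6), and 1 bp in common counted as overlap. The expected number of tags was solved as the Poisson mean at which the probability of more than the listed tags equals the P value, over peaks of 300 to 700 bp. The functions were tested on simulated data. Named transcripts were those with 3 or more of the peaks, those of genes named in the text of the study, and those with a peak at an exon or within 1000 bp of the start, and the other genes among the 25 are named briefly. Peaks described singly were the first 5 by score, fold enrichment, tags and width. The rule, members and lists were chosen with earlier results of these data known. No test was made, since there was 1 library per condition and peaks are not replicates. Intervals cover counting error only. Promoter sequences came from RefSeq tables of GRCh38.p14, and the entry whose distance to the end of the gene differed least from the length of the listed transcript was taken (by 46 bp for MKLN1 and 6 bp for WDR34).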

Additional observations from a re-analysis of the deposited data

How the results depend on the processing

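Counts were taken as unchanged within a factor of 1.5, medians within 1 SD across peaks and the share on chromosomes 7, 8 and 9 within its Wilson interval (54.3% to 57.6%). Requiring a P value of 1e-10 or less left 41 peaks called against DLD-1/Mock only, with a median width of 1000 bp and a median of 38 tags. It left 1 transcript of the specific list with such a peak. Of the 41 peaks, 92.7% were on chromosomes 7, 8 and 9. The share of peaks called against both controls on those chromosomes at this P value was not counted, so that nothing particular to the 41 is read from it. With fold enrichment held to 10 or more, 205 peaks remained, 61.5% of them on those chromosomes, and with an FDR of at most 50%, 1860. A filter can only lower a number of peaks, and at a given expectation a lower P value requires more tags. The interval for the chromosome share was that of the whole group and does not cover the counting error of the smaller sets. Whether the shares differ beyond that error, and why the widths differed, was not tested.

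Reciprocal overlap of 50% and summits within 100 bp gave the same 3442 peaks, which follows from the identical coordinates of all shared peaks. Counting input peaks within 1000 bp as shared left 3340, merging within 1000 bp gave 3381 and leaving out chromosome 8, an alternative chosen after seeing the data, left 2375. The remaining alternatives stayed within the limits above. They included the background solved from fold enrichment (1.22 tags per 150 bp, as in the main solution) and, added after seeing the data, from all widths (1.26), where the solution is less certain because the number of tags tested by MACS in wide peaks may differ from the number listed. No paired analysis was possible because there was a single library per condition. The depth limits any ranking of single peaks, most of which rest on 12 to 20 tags.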
